A study of Arabidopsis thaliana with 12 samples.

Results

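The jasmonate and ethylene defence pathway was followed through 33 genes, chosen by identifier from the 32833 genes counted in whole Arabidopsis thaliana seedlings. They comprise 9 genes of jasmonate synthesis, 3 of jasmonate turnover, 11 of jasmonate perception and repression, 2 ethylene response factors and 8 defence output genes. The seedlings were of 4 groups with 3 libraries each. Experiment 1 held hira-1 and wild-type Columbia-0 (Col-0), and experiment 2 held fas2-4 and a separate set of Col-0. The sample titles read Group1 and Group2 for what is called experiment 1 and experiment 2 here. HIRA codes for a chaperone of the histone variant H3.3. FAS2 codes for part of CAF-1, the chaperone complex that loads H3.1 onto newly copied DNA, and the study set out to relate CAF-1 to where H3.3 is placed. After 4 days in the cold at 4 °C, seed was germinated, and plants were taken 12 days after germination from a soil mixture kept in long days near 21 °C. The kind and position of each lesion and the number of seedlings pooled per library are not given in the sources used here. Nothing says that the replicates came from separate cultures, so every p below measures the spread between these libraries, which may be technical. Because whole seedlings were ground, fewer cells of a type and less RNA per cell cannot be told apart.

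By role, the synthesis genes are LOX2 (AT3G45140), LOX3 (AT1G17420), LOX4 (AT1G72520), AOS (AT5G42650), AOC1 (AT3G25760), AOC2 (AT3G25770), AOC3 (AT3G25780), OPR3 (AT2G06050) and JAR1 (AT2G46370). Turnover is represented by CYP94B3 (AT3G48520), CYP94C1 (AT2G27690) and JMT (AT1G19640). Perception and repression comprise COI1 (AT2G39940), MYC2 (AT1G32640), JAZ1 (AT1G19180), JAZ2 (AT1G74950), JAZ3 (AT3G17860), JAZ5 (AT1G17380), JAZ6 (AT1G72450), JAZ7 (AT2G34600), JAZ8 (AT1G30135), JAZ9 (AT1G70700) and JAZ10 (AT5G13220). The ethylene response factors are ERF1 (AT3G23240) and ORA59 (AT1G06160). The outputs are VSP1 (AT5G24780) and VSP2 (AT5G24770) of the wound branch, and PDF1.2a (AT5G44420), PDF1.2b (AT2G26020), PDF1.2c (AT5G44430), PDF1.3 (AT2G26010), PR3 (AT3G12500) and PR4 (AT3G04720) of the ethylene branch.

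Jasmonate is made from plastid fatty acids: lipoxygenases oxidise them, allene oxide synthase and the allene oxide cyclases form the ring precursor, and the reductase OPR3 acts before the final steps in peroxisomes. JAR1 joins jasmonic acid to isoleucine, and this conjugate brings the F-box protein COI1 to the JAZ repressors, whose breakdown frees the transcription factor MYC2. In leaves, MYC2 drives the wound branch with its outputs VSP1 and VSP2, while ERF1 and ORA59 join jasmonate and ethylene in a second branch with the plant defensins (PDF1.2a and relatives) and the chitinase-type proteins PR3 and PR4 as outputs.

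The 4 plant defensin genes differed widely between single fas2-4 libraries and are close copies of each other, so their sequences are shown here. They lie in a tandem pair on each of 2 chromosomes: PDF1.2a and PDF1.2c on chromosome 5, 1211 bases apart, and PDF1.3 and PDF1.2b on chromosome 2, 1121 bases apart. The first set gives the 300 bases before the annotated start of each gene in the RefSeq annotation of TAIR10.1, read 5′ to 3′ on the gene's strand. They span chr5:17907639-17907938, minus strand, for PDF1.2a, chr5:17909508-17909807, minus strand, for PDF1.2c, chr2:11088823-11089122, plus strand, for PDF1.2b, and chr2:11086980-11087279, plus strand, for PDF1.3. Capitals mark GCCGCC, the core of the GCC box that ethylene response factors bind, and CACATG, a G-box variant bound by MYC2, written CATGTG where it lies on the other strand.
PDF1.2a promoter: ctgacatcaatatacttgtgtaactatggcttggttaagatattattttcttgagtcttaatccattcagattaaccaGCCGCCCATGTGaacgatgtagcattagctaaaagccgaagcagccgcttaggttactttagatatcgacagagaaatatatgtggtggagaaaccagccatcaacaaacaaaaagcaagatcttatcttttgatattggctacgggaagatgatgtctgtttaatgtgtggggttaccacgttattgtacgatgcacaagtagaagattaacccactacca
PDF1.2c promoter: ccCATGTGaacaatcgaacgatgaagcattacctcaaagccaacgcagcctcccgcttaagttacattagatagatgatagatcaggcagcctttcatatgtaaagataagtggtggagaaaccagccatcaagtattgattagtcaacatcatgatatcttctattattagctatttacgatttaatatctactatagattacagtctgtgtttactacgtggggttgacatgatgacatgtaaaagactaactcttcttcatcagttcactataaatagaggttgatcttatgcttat
PDF1.2b promoter: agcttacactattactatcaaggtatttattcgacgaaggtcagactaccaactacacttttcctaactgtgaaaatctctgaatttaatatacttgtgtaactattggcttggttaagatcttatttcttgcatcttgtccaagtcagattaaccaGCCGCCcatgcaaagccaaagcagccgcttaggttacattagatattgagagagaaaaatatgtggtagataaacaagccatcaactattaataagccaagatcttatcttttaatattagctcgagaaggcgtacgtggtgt
PDF1.3 promoter: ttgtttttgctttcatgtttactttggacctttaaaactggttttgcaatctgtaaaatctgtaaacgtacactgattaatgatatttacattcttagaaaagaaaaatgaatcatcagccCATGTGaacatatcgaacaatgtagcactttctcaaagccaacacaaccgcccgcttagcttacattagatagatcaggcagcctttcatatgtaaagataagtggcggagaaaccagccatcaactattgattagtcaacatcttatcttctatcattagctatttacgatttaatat
GCCGCC was in the windows of PDF1.2a and PDF1.2b, 222 and 143 bases before the start, and not in those of PDF1.2c and PDF1.3. CACATG was in the windows of PDF1.2a, PDF1.2c and PDF1.3, and in PDF1.2a it directly adjoins GCCGCC without overlapping it. Searched on both strands, GCCGCC was in 3 of the 33 members' windows (ORA59, PDF1.2a and PDF1.2b), against 2.26% of the 27443 windows of the same length. CACGTG, the G-box, was in 6 of 33 members (AOS, JAZ2, JAZ3, JAZ7, JAZ8 and ORA59), against 7.09% of all windows. CACATG was in 9 of 33 members, against 13.1%. These are matches of letters in one window and are no evidence of binding.

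The second set gives the coding sequences with exons joined, 243 bases each, from chr5:17907216-17907550, minus strand, for PDF1.2a, chr5:17909092-17909444, minus strand, for PDF1.2c, chr2:11089281-11089597, plus strand, for PDF1.2b, and chr2:11087411-11087755, plus strand, for PDF1.3. They show how alike the copies are whose reads the counting had to tell apart, and capitals mark the bases that differ from PDF1.2a.
PDF1.2a coding: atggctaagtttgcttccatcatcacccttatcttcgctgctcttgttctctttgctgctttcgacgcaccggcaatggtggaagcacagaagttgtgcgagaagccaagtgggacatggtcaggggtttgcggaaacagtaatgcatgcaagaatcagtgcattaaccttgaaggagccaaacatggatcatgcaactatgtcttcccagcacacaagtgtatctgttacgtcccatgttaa
PDF1.2c coding: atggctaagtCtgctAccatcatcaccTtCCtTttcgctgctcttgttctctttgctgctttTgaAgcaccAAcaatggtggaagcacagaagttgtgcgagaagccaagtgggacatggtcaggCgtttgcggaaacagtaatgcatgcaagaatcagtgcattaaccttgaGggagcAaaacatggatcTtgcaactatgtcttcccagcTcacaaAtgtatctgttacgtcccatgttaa
PDF1.2b coding: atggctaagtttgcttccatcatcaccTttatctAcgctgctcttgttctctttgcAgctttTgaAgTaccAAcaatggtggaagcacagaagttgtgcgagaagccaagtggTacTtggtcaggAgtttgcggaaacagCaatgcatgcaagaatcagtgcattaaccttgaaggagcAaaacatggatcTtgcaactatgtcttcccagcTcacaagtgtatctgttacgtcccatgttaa
PDF1.3 coding: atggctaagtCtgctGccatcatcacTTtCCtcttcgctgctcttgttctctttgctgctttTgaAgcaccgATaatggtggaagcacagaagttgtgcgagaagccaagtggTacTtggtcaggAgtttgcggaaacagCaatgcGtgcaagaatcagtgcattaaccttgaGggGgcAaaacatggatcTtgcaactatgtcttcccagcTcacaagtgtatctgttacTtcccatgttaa
Any pair of the 4 was 91.4% to 94.7% identical, with 13 to 21 differences. Exact stretches of 50 bases shared with another copy made up at most 5.48% of the windows in a defensin transcript (PDF1.2b and PDF1.3). How reads that fit several copies were counted is not given in the sources used here, so the split between the 4 defensins is uncertain. The same holds to a smaller degree for the tandem cyclase genes AOC1, AOC2 and AOC3 and for VSP1 and VSP2, where at most 2.2% of such windows were shared.

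The libraries held 20700171 to 21902258 counts in experiment 1 and 39258873 to 39510509 in experiment 2. HIRA did not bear out its label. It had 235, 286 and 454 counts in the libraries labelled hira-1, against 223, 300 and 203 in Col-0. That was +0.56 ± 0.30 on the log2 scale (SE, adjusted p of 0.198 from edgeR). FAS2 had 197, 207 and 281 counts in fas2-4, against 273, 286 and 253 in Col-0, or −0.40 ± 0.16 (adjusted p of 0.157). Counts over a whole gene need not fall in a mutant, but each direction given for hira-1 rests on the label. In the libraries labelled hira-1, long genes were lower across the genome: the median on the log2 scale was +0.55 for genes with under 1000 exon bases and −0.76 for genes with at least 3000. In fas2-4 both medians were within 0.07 of 0. The first fas2-4 library stood apart from the other two, with a chi-square per degree of freedom of 81.1 and 80.6 against them, and 12.4 between the pair.

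Levels below are in CPM, counts scaled to library size by TMM over all 12 libraries. Log2 fold changes come from edgeR's quasi-likelihood test on the counts of a mutant and of Col-0 from the same experiment. They are given ± their standard error. Calls are genes whose Benjamini-Hochberg p, adjusted across every tested gene, was under 0.05. Per length, on the authors' TMM-scaled TPM values, AOS had the highest mean of the 33 genes in the libraries labelled hira-1 (142) and in Col-0 of experiment 1 (186), PR4 in fas2-4 (281), and PDF1.2a in Col-0 of experiment 2 (251). JAZ9 was among the top 3 in every group.

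MYC2, the central activator of the wound branch, was listed at 0 in all 12 libraries and is not measured by these counts. On TAIR10.1, 98.5% of its exon bases lie within exons of AT1G32630 on the opposite strand, a gene with 16 to 93 counts per library. Of the 1093 genes with at least 95% of their exon bases overlapped by genes on the opposite strand only, 1067 (97.6%) were listed at 0 in every library, against 4084 of 22776 genes (17.9%) with no overlap. CYP94B3, a jasmonate-isoleucine hydroxylase, also failed the low-count filter in every comparison, ERF1 failed it in the hira-1 comparison and JAZ7 in the fas2-4 comparison. PR3 shares 33.1% of its exon bases with the antisense gene AT3G12502, and since the use of strand is not given in the sources used here, its counts are uncertain. Thus 30 of 33 members were tested in each mutant.

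**Figure D1:**
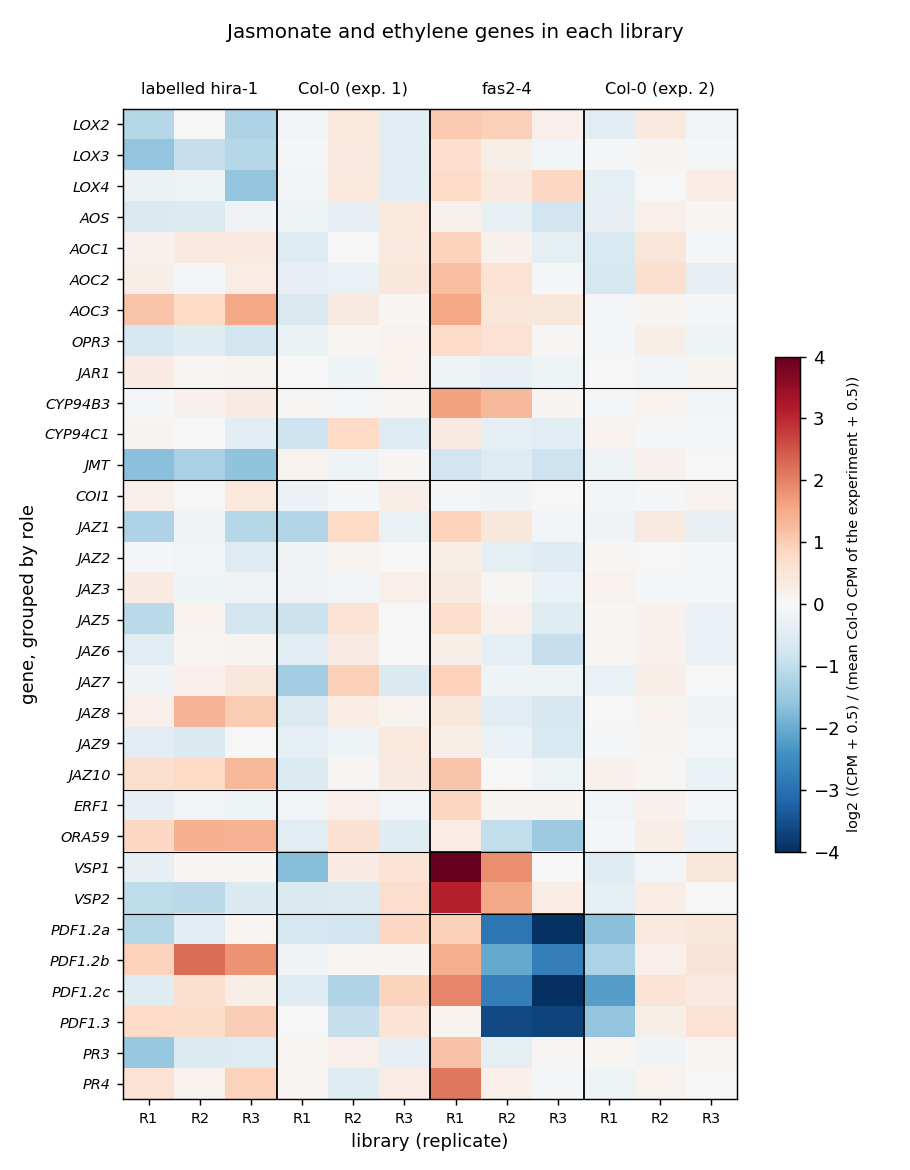
Each row is a gene, grouped by role (MYC2, at 0 throughout, is left out), and each column a library. Colour gives the log2 ratio of CPM + 0.5 to the mean Col-0 CPM + 0.5 of the same experiment, with values beyond 4 in either direction drawn at 4. The first fas2-4 library is red in most rows, and the other fas2-4 libraries are blue in the 4 defensin rows.

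In the libraries labelled hira-1, 4 of the 30 tested members were called, 2 higher and 2 lower than Col-0 (6.94% and 6.8% of all genes). The cyclase gene AOC3 and the defensin PDF1.2b were higher, and the lipoxygenase LOX3 and the jasmonate methyltransferase JMT were lower. Of all 18739 genes tested, 13.7% were called, and the members' share of 13.3% is close to that background. The median log2 fold change was −0.06 over the tested members and −0.02 over all genes. Between the groups, 10 members had no overlap of libraries, against 38.5% of all genes. Same-numbered libraries of this experiment deviated together, though the labels state no pairing. With the number as a block 18 members were called, 8 higher and 10 lower, when 51.2% of all genes were, 23.9% higher and 27.3% lower. By an unadjusted p below 0.05 there were 11 members, against 36.4% of all genes.

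Among the synthesis genes, LOX3, a lipoxygenase of the first step, had 2.495, 4.21 and 3.596 CPM in libraries labelled hira-1, against 8.05, 11.3 and 5.996 CPM in Col-0. All 3 libraries labelled hira-1 lay below all 3 of Col-0, with a log2 fold change of −1.29 ± 0.32 (adjusted p = 0.0363). LOX3 has 3086 exon bases, and with a correction for the genome-wide length trend its value was −0.71 and no longer passed (adjusted p = 0.111). LOX2, the main lipoxygenase of wounded leaves, had 50.3, 113 and 47.8 CPM in libraries labelled hira-1, against 103, 151 and 82.3 CPM in Col-0, and the groups overlapped. Its log2 fold change was −0.68 ± 0.34 (adjusted p = 0.181), it passed with the block (adjusted p = 1.26e-05), and it was −0.11 with the length correction. LOX4 had a value of −0.59 (adjusted p = 0.317, and 0.0178 with the block, which it passed). All 3 lipoxygenase genes, which are the longest of the tested members at 3046 to 3252 exon bases, thus had negative values. With the block and the length correction, LOX3 was called (−0.73, adjusted p = 0.0144). LOX2 (−0.14, adjusted p = 0.318) and LOX4 (−0.11, adjusted p = 0.7275) were then not called. AOC3 had 8.41, 6.54 and 11.3 CPM in libraries labelled hira-1, against 2.24, 4.67 and 3.78 CPM in Col-0, again without overlap. That gave a log2 fold change of +1.31 ± 0.35 (adjusted p = 0.0414), which was +1.24 with the length correction (adjusted p = 0.0425).

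The other cyclase genes did not pass: AOC1 had 39.5, 46.9 and 46.7 CPM in libraries labelled hira-1, against 24.7, 35.1 and 46.3 CPM in Col-0, and AOC2 had 109, 87.5 and 114 CPM in libraries labelled hira-1, against 73.1, 76.8 and 128 CPM in Col-0. Their log2 fold changes were +0.33 and +0.17 (adjusted p = 0.324 and 0.628), so of the tandem trio AOC3, the least abundant, differed most. OPR3, the reductase, had 11.99, 13.8 and 11.4 CPM in libraries labelled hira-1, against 16.1, 20.3 and 21.4 CPM in Col-0. Its groups did not overlap, and its value of −0.63 ± 0.19 (adjusted p = 0.0570) narrowly missed the threshold, which it passed with the length correction (adjusted p = 0.0447) and with the block (adjusted p = 0.000913). AOS, which forms the allene oxide, had 198, 203 and 273 CPM in libraries labelled hira-1, against 256, 239 and 400 CPM in Col-0, with −0.39 (adjusted p = 0.262). JAR1, the conjugating enzyme, had 56.9, 48 and 48.98 CPM in libraries labelled hira-1, against 45.8, 39.8 and 49.8 CPM in Col-0, with +0.19 (adjusted p = 0.419). AOS and AOC1 were called with the block, lower and higher (adjusted p = 0.00412 and 0.0184). With the block and the length correction, AOS was still called (−0.27, adjusted p = 0.0245), and JAR1 was called higher (+0.61, adjusted p = 0.00031). AOC1 was then at +0.08 and not called (adjusted p = 0.647).

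JMT makes volatile methyl jasmonate and so draws on the pool of free jasmonic acid. It had 3.2, 4.26 and 3.32 CPM in libraries labelled hira-1, against 12.5, 9.73 and 11.5 CPM in Col-0. The libraries labelled hira-1 all lay far below those of Col-0, with no overlap. The log2 fold change of −1.64 ± 0.23 (adjusted p = 0.0172) was the lowest value among the tested members, and the length correction left it at −1.69 (adjusted p = 0.00610). CYP94C1, an enzyme that oxidises the hormone conjugate, had 2.44, 2.23 and 1.53 CPM in libraries labelled hira-1, against 1.04, 4.29 and 1.43 CPM in Col-0. CYP94C1 overlapped between the groups (−0.13, adjusted p = 0.872). CYP94B3 had 0, 2 and 3 counts in the libraries labelled hira-1, against 1, 0 and 1 in Col-0, all at or under the floor of 3 counts.

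**Figure D2:**
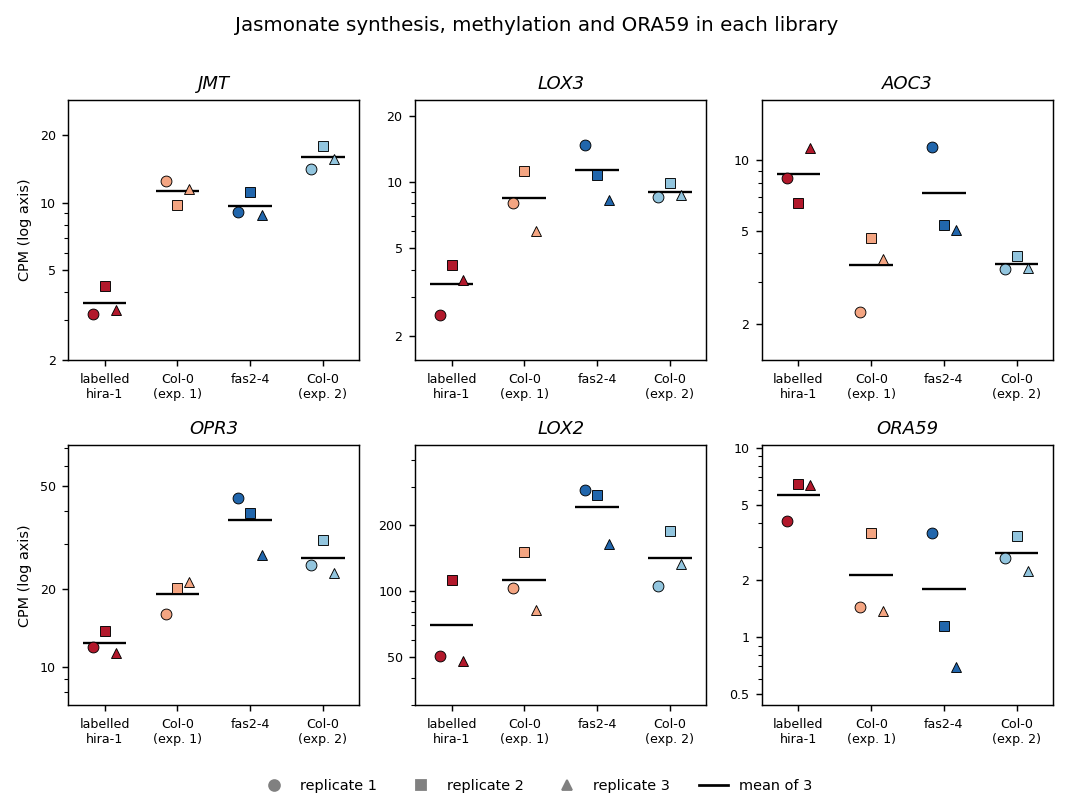
CPM on a log axis for JMT, LOX3, AOC3, OPR3, LOX2 and ORA59. Each point is a library, with its replicate number by shape, and bars are means of 3 libraries. JMT is lower in all 3 libraries of either mutant than in any Col-0 library of the same experiment.

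No member of the perception and repression group was called in the libraries labelled hira-1 by edgeR without the block. Of its 10 tested members, 2 (JAZ8 and JAZ10) had an unadjusted p below 0.05, and 1 was called by DESeq2, JAZ10. JAZ10, a repressor induced by jasmonate itself, had 5.53, 6.29 and 9.21 CPM in libraries labelled hira-1, against 2.14, 3.48 and 4.52 CPM in Col-0. The groups did not overlap, with a log2 fold change of +1.06 ± 0.35 (adjusted p = 0.0657), and the block gave an adjusted p of 0.000202. COI1, the receptor subunit, had 63.9, 56.2 and 74.4 CPM in libraries labelled hira-1, against 46.7, 52.8 and 66 CPM in Col-0, with +0.25 (adjusted p = 0.391). JAZ3 had 37.5, 25.9 and 26.7 CPM in libraries labelled hira-1, against 26.98, 27.3 and 34.2 CPM in Col-0, with +0.03 (adjusted p = 0.917). The other repressors ranged between −0.83 for JAZ1 and +1.53 for JAZ8, with adjusted p-values of 0.277 and 0.103. JAZ2, JAZ5, JAZ6, JAZ7 and JAZ9 lay between these values, with adjusted p-values from 0.373 to 0.879. With the block, JAZ8 and JAZ10 were called higher and JAZ1 and JAZ9 lower. With the length correction added to the block, JAZ8 was not called (adjusted p = 0.0632). COI1 and JAZ3 were then called higher and JAZ2 lower (adjusted p = 0.000698, 0.0341 and 0.0182).

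In the ethylene branch, the regulator ORA59 had 4.12, 6.44 and 6.37 CPM in libraries labelled hira-1, against 1.44, 3.53 and 1.38 CPM in Col-0. Its groups did not overlap, and its log2 fold change of +1.42 ± 0.41 (adjusted p = 0.0508) narrowly missed the threshold that it passed with the block (adjusted p = 6.74e-05). ERF1, the other regulator, had 2, 4 and 3 counts in the libraries labelled hira-1, against 4, 8 and 4 in Col-0. PDF1.2b had 1.36, 4.11 and 2.94 CPM in libraries labelled hira-1, against 0.398, 0.525 and 0.541 CPM in Col-0. That was a log2 fold change of +2.51 ± 0.47 (adjusted p = 0.0230), and +1.99 with the length correction (adjusted p = 0.0390), from 25, 83 and 54 counts in the libraries labelled hira-1 and 8, 11 and 11 in Col-0. Its tandem neighbour PDF1.3 had 20.5, 20.01 and 24.1 CPM in libraries labelled hira-1, against 11.8, 6.11 and 17.8 CPM in Col-0, with +0.87 (adjusted p = 0.0990). It passed with the block (adjusted p = 0.000680), and its value was +0.34 with the length correction. With both, PDF1.3 was at +0.39 and not called (adjusted p = 0.342). PDF1.2a had 9.55, 16.2 and 23.3 CPM in libraries labelled hira-1, against 13.6, 12.7 and 39.1 CPM in Col-0, with −0.40 (adjusted p = 0.552). With the block and the length correction, PDF1.2a was called lower (−0.89, adjusted p = 0.0366). PDF1.2c had 3.74, 8.77 and 6.65 CPM in libraries labelled hira-1, against 3.63, 2.099 and 10.7 CPM in Col-0, with +0.23 (adjusted p = 0.777). The pair on chromosome 2 thus lay above Col-0 in every library, and the pair on chromosome 5 overlapped with it.

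PR3, a basic chitinase, had 0.488, 1.44 and 1.47 CPM in libraries labelled hira-1, against 2.49, 2.72 and 1.77 CPM in Col-0, with −1.02 (adjusted p = 0.128, and 0.0194 with the block). PR4, a chitin-binding protein, had 57.7, 42.6 and 73.9 CPM in libraries labelled hira-1, against 40.8, 27.5 and 47.8 CPM in Col-0, with +0.60 (adjusted p = 0.139, and 0.000153 with the block). Both passed with the block, PR3 as lower and PR4 as higher. With the block and the length correction, PR3 was still called (−1.27, adjusted p = 0.0158). PR4 was then at +0.27 and not called (adjusted p = 0.0528). In the wound branch, VSP2, a vegetative storage protein with acid phosphatase activity, had 14.8, 14.5 and 20.3 CPM in libraries labelled hira-1, against 20.5, 20.8 and 50.7 CPM in Col-0. Its groups did not overlap, with −0.88 ± 0.36 (adjusted p = 0.112), and it passed with the block (adjusted p = 0.000156). VSP1, its tandem neighbour, had 4.77, 6.49 and 6.32 CPM in libraries labelled hira-1, against 1.54, 7.77 and 9.09 CPM in Col-0, with −0.06 (adjusted p = 0.939). The third Col-0 library held the highest level of both storage proteins and of PDF1.2a and PDF1.2c in its group.

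The calls in this comparison changed with single libraries. No member was called without the first or without the second Col-0 library, 1 without the first library labelled hira-1 (PDF1.2b) and 2 without the third (JMT and PDF1.2b). Without the third Col-0 library 6 members were called, and without the second library labelled hira-1 7 were. Over all genes the count of calls was 19, 50, 29, 443, 3553 and 5021 in the same order.

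**Figure D3:**
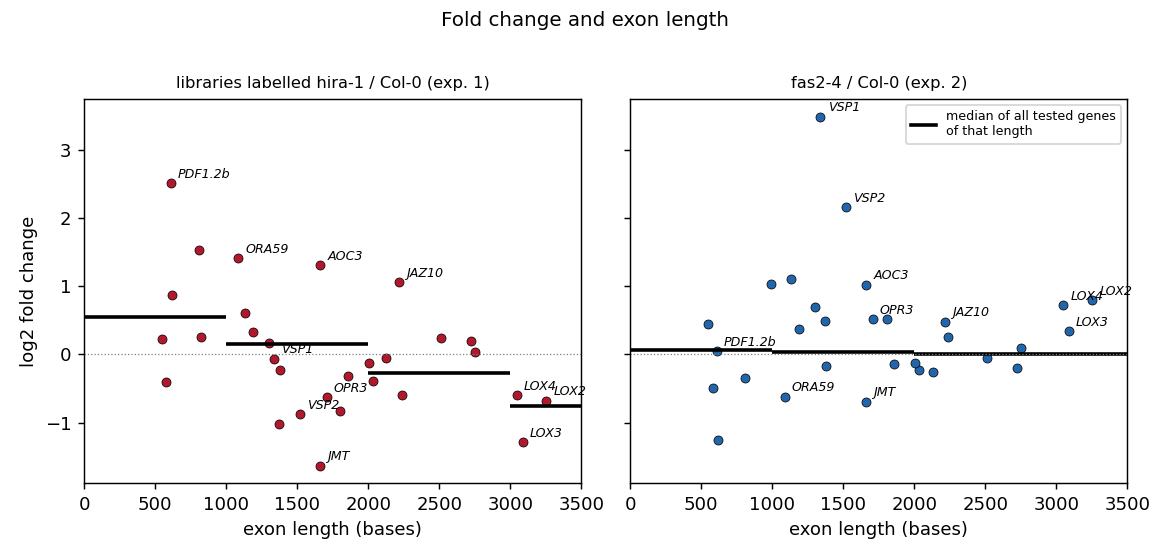
Log2 fold change of each tested member against its exon length, with the median of all tested genes in 4 length classes as black bars. In the libraries labelled hira-1 the medians run from +0.55 to −0.76 and the 3 lipoxygenase genes sit at the long end, while in fas2-4 the medians stay near 0.

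In fas2-4, JMT was the only one of the 30 tested members to be called, and it was lower than in Col-0. Of all 20004 genes tested, 9.74% were called, 6.78% higher and 2.96% lower, against 3.33% of the members. The storage protein genes VSP1 and VSP2 had the highest mean fold changes, but did not pass. The median log2 fold change was +0.30 over the tested members and +0.03 over all genes. By an unadjusted p below 0.05, 7 members stood out, against 25.4% of all genes, and the libraries did not overlap in 5 members, against 31.7% of all genes. DESeq2 called 6 members (JMT lower, and LOX2, LOX4, AOC3, VSP1 and VSP2 higher), when it called 14.9% of all genes.

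JMT had 9.13, 11.1 and 8.802 CPM in fas2-4, against 14.2, 17.9 and 15.7 CPM in Col-0. Its 3 mutant libraries lay under the whole Col-0 range, with a log2 fold change of −0.69 ± 0.15 (adjusted p = 0.0249). It was not called without any 1 of the 3 Col-0 libraries or without the third fas2-4 library, with values from −0.81 to −0.60 and adjusted p-values up to 0.117. Of all genes, 3.35%, 3.57% and 3.17% were called without the first, the second and the third Col-0 library. JMT was also the only member called in both mutants. CYP94B3, which the filter removed, had 51, 41 and 5 counts in fas2-4, against 2, 5 and 1 in Col-0. Without the filter it was called, at +3.41 ± 0.88 with an adjusted p of 0.0440. CYP94C1 had 2.43, 1.27 and 1.2 CPM in fas2-4, against 2.01, 1.72 and 1.68 CPM in Col-0, with −0.13 (adjusted p = 0.839).

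Of the 9 synthesis genes, 7 had positive values in fas2-4 and none was called by edgeR, although 4 stood below 0.05 unadjusted and DESeq2 called 3. AOC3 had 11.4, 5.29 and 5.05 CPM in fas2-4, against 3.42, 3.904 and 3.47 CPM in Col-0. Its groups did not overlap, with +1.02 ± 0.30 (adjusted p = 0.0676), and it passed with the length correction (adjusted p = 0.0430). LOX4 had 14.5, 10.98 and 15.3 CPM in fas2-4, against 6.19, 8.38 and 10.4 CPM in Col-0, without overlap, with +0.73 ± 0.21 (adjusted p = 0.0639). LOX2 had 292, 276 and 165 CPM in fas2-4, against 105, 188 and 133 CPM in Col-0, where the third fas2-4 library lay within the range of Col-0, with +0.80 ± 0.26 (adjusted p = 0.0917). OPR3 had 44.95, 39.4 and 27.1 CPM in fas2-4, against 24.8, 31.1 and 23.2 CPM in Col-0, with +0.51 ± 0.20 (adjusted p = 0.139). LOX3 had 14.8, 10.8 and 8.297 CPM in fas2-4, against 8.54, 9.896 and 8.71 CPM in Col-0, with +0.34 (adjusted p = 0.351). AOC1 had 27.3, 16.2 and 10.97 CPM in fas2-4, against 9.05, 20.1 and 13.4 CPM in Col-0, and AOC2 had 61.98, 40.2 and 25.9 CPM in fas2-4, against 16.7, 42.3 and 21.2 CPM in Col-0. Both overlapped with Col-0, with +0.37 and +0.69 (adjusted p = 0.591 and 0.309). The remaining synthesis genes had negative values. AOS had 157, 113 and 81.9 CPM in fas2-4, against 111, 159 and 148 CPM in Col-0, with −0.23 (adjusted p = 0.608). JAR1 had 39.1, 36.5 and 38.98 CPM in fas2-4, against 44.01, 41.4 and 48.4 CPM in Col-0, with −0.20 (adjusted p = 0.309), and its libraries all lay below Col-0.

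Perception and repression held no call in fas2-4: 0 of 9 tested members was called by edgeR or by DESeq2, and 0 had an unadjusted p under 0.05. COI1 had 41.2, 39.2 and 43.8 CPM in fas2-4, against 40.6, 42.4 and 47.8 CPM in Col-0, with −0.05 (adjusted p = 0.838). JAZ10 had 11.2, 4.75 and 4.13 CPM in fas2-4, against 5.48, 5.05 and 3.95 CPM in Col-0, with +0.48 (adjusted p = 0.454). JAZ3 had 12.5, 10.1 and 7.92 CPM in fas2-4, against 10.8, 9.101 and 9.22 CPM in Col-0, with +0.09 (adjusted p = 0.817). The other tested repressors, JAZ1, JAZ2, JAZ5, JAZ6, JAZ8 and JAZ9, ranged from −0.35 for JAZ8 to +0.52 for JAZ1. JAZ7, which the filter removed, had 34, 5 and 5 counts in fas2-4 and 3, 13 and 7 in Col-0.

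Among members with over 3 counts in each library, VSP1 and the 4 defensins had the widest spans within fas2-4. PR4 and PR3 spanned 4.46-fold and 3.22-fold, less than CYP94B3 (11.5-fold) and JAZ7 (7.68-fold). VSP1 had 179, 23.98 and 6.15 CPM in fas2-4, against 4.29, 5.69 and 8.64 CPM in Col-0, a span of 29.1-fold between the highest and the lowest fas2-4 library. Its log2 fold change of +3.49 ± 1.19 (adjusted p = 0.125) was +1.29 without the first library. VSP2 had 84.9, 27.6 and 11.7 CPM in fas2-4, against 6.99, 11.6 and 9.38 CPM in Col-0, a span of 7.26-fold. Its lowest fas2-4 library only just exceeded the highest of Col-0, with a log2 fold change of +2.16 ± 0.61 (adjusted p = 0.0634). PDF1.2a had 176, 11.9 and 5.43 CPM in fas2-4, against 28.4, 119 and 126 CPM in Col-0. PDF1.2c had 124, 4.32 and 1.43 CPM in fas2-4, against 6.45, 47.2 and 41.8 CPM in Col-0. In both, the first fas2-4 library was above all Col-0 libraries and the other fas2-4 libraries were below all of them, and the spans were 32.4-fold and 86.8-fold.

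PDF1.2b followed the same order, with 27.8, 1.999 and 1.03 CPM in fas2-4, against 3.88, 11.6 and 14.3 CPM in Col-0, and a span of 26.9-fold. PDF1.3 had 91.04, 6.28 and 5.81 CPM in fas2-4, against 27.2, 96.9 and 123 CPM in Col-0, a span of 15.7-fold, and its first fas2-4 library lay within the Col-0 range. The 4 defensins had log2 fold changes of −0.50, +0.45, +0.05 and −1.26, in the order PDF1.2a, PDF1.2c, PDF1.2b and PDF1.3, with standard errors of 1.25, 1.51, 1.17 and 1.14. No direction can be read from values with such errors, and DESeq2 gave no adjusted p for PDF1.2a and PDF1.2c. PR4 had 403, 107 and 90.4 CPM in fas2-4, against 81.4, 104 and 94.7 CPM in Col-0, with +1.11 ± 0.49 (adjusted p = 0.200). PR3 had 9.68, 3.01 and 4.19 CPM in fas2-4, against 4.25, 3.61 and 4.25 CPM in Col-0, with +0.49 (adjusted p = 0.477). Of the regulators, ORA59 had 3.54, 1.14 and 0.695 CPM in fas2-4, against 2.62, 3.43 and 2.24 CPM in Col-0, with −0.62 (adjusted p = 0.511), and ERF1 had 0.785, 0.279 and 0.274 CPM in fas2-4, against 0.1698, 0.298 and 0.178 CPM in Col-0, with +1.04 (adjusted p = 0.244).

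**Figure D4:**
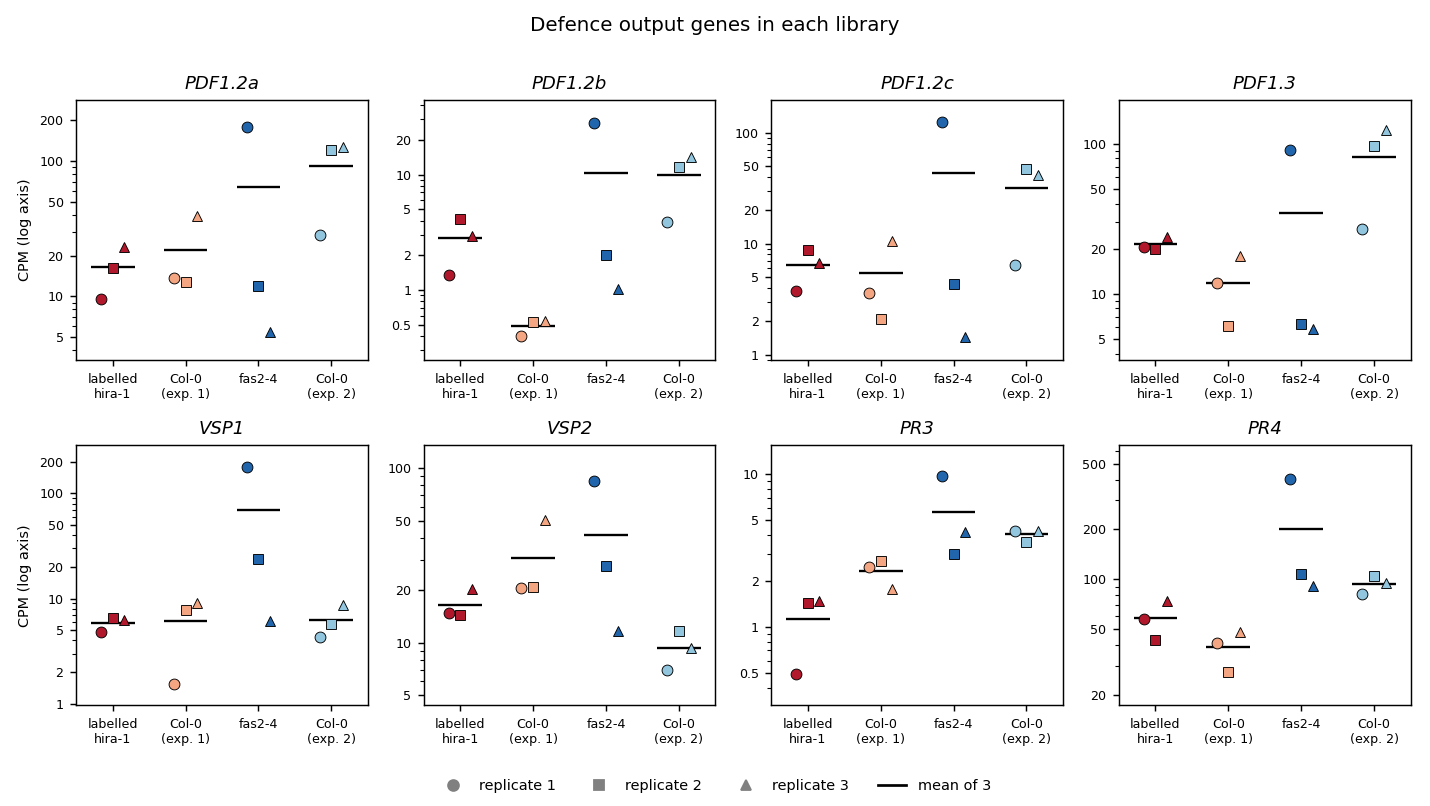
CPM on a log axis for the 8 output genes. Each point is a library, with its replicate number by shape, and bars are means of 3 libraries. In fas2-4 the first library (circle) stands highest in every panel, and in the 3 PDF1.2 genes and PDF1.3 the other fas2-4 libraries lie below every Col-0 library of the experiment.

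The first fas2-4 library was the highest of its group for 27 of 30 tested members (90%), against 45.7% of all tested genes. The third was the lowest for 26 of 30 (86.7%), against 28.5%. A span of over 4-fold between libraries of the group was found in 8 of 29 members with over 3 counts in each library (27.6%), against 0.867% of all such genes. In Col-0 of experiment 2 the shares were 10% of members and 0.338% of all genes, in the libraries labelled hira-1 they were 0% and 2.21%, and in Col-0 of experiment 1 they were 14.3% and 1.09%. In wild type of both experiments, too, the share of members with such spans was above that of all genes.

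Without the first fas2-4 library, 6 of 30 members were called, when 28% of all genes were, and the members' median was −0.11. ORA59 was then lower (−1.58, adjusted p = 0.00267), as were JAZ8 (−1.95, adjusted p = 0.0233), JAZ2 (−0.46, adjusted p = 0.00663), JAZ9 (−0.43, adjusted p = 0.0222) and JMT (−0.67, adjusted p = 0.00667). AOC3 was higher (+0.53, adjusted p = 0.0171). VSP1 and VSP2 were still positive at +1.29 and +1.08 (adjusted p = 0.264 and 0.119). The defensins had −3.39 for PDF1.2a, −3.46 for PDF1.2c, −2.70 for PDF1.2b and −3.76 for PDF1.3, with adjusted p-values of 0.0796, 0.128, 0.0601 and 0.0517. PR4 was at +0.09. Without the second fas2-4 library the called members were JMT, LOX4 and AOC3, when 7.19% of all genes were called. Without the third, when 5.16% were, they were LOX2, VSP2 and CYP94B3, the last of which then passed the filter.

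Markers of other organs and of other defence moved with this comparison. The summed level of 7 floral organ markers was 21.4, 10.7 and 12.7 CPM in fas2-4, against 4.63, 3.66 and 3.08 CPM in Col-0, with none at 0 and 5 of 7 called higher, among them SEP3 (+3.45), AP1 (+3.34), SEP2 (+4.54) and AP3 (+3.59). AG of the same list had a negative value (−0.63, adjusted p = 0.181), with 0.951, 0.709 and 1.07 CPM in fas2-4, against 1.72, 1.49 and 1.07 CPM in Col-0. The 8 salicylic acid markers summed to 1466, 696 and 1150 CPM in fas2-4, against 327, 400 and 415 CPM in Col-0. Of these, 5 were called higher, among them the glucanase gene BGL2 (+2.21), the salicylic acid synthesis gene EDS16 (+1.26), PR1 (+2.37) and PAD4 (+0.82). Both counts were 5 without the first fas2-4 library too, when 28% of all genes were called. The 10 touch and wound genes summed to 384, 219 and 275 CPM in fas2-4, against 297, 232 and 305 CPM in Col-0, with 1 of 9 tested called higher (RHL41, +1.15). Root markers summed to 119 to 145 CPM in fas2-4 and 124 to 156 CPM in Col-0, with EXPA7 at 0 in both groups. The part of these markers in the values of the pathway was not tested.

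**Figure D5:**
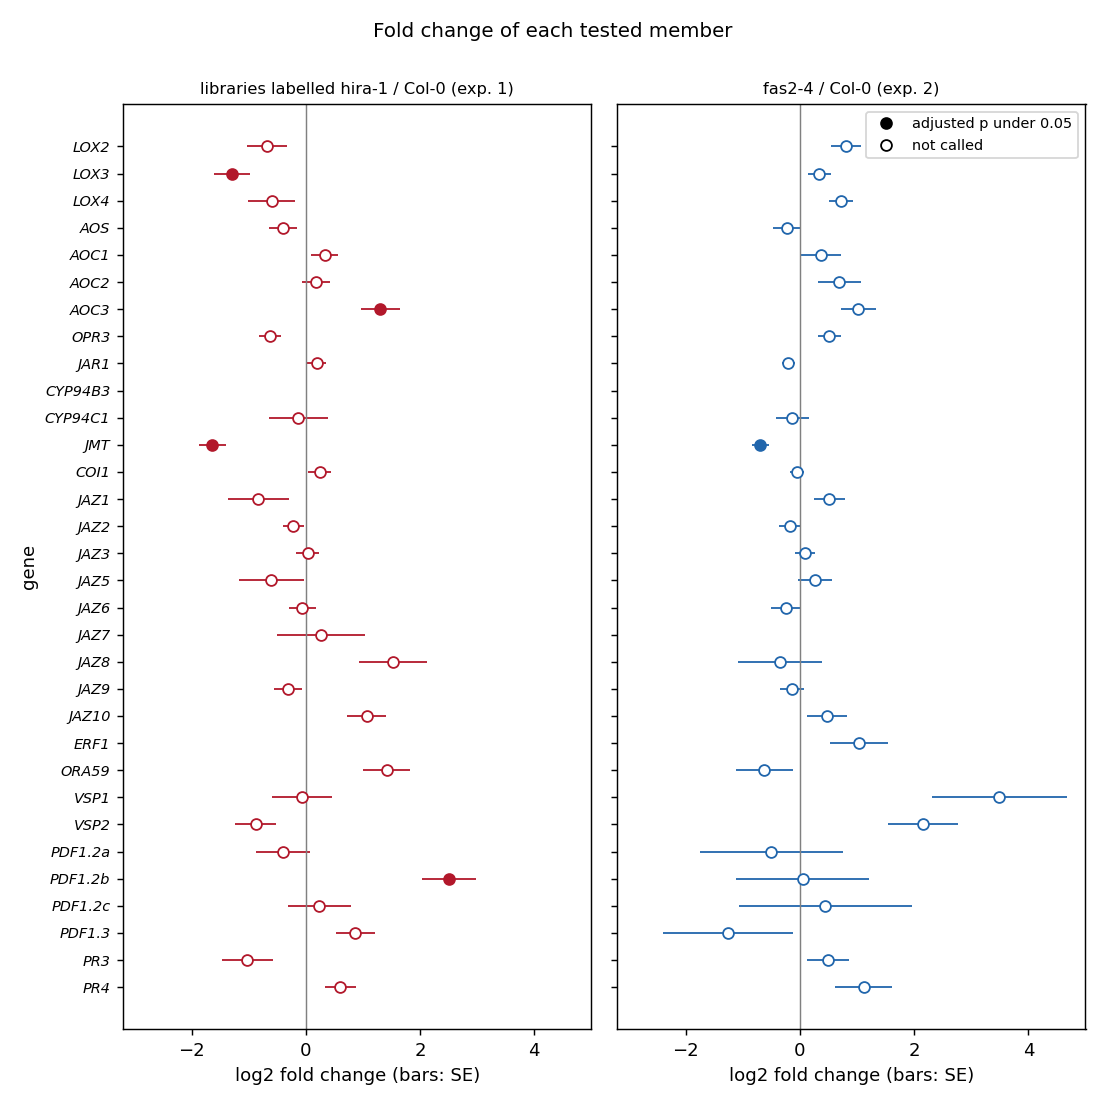
Log2 fold change of each tested member, with its standard error as a bar, in the libraries labelled hira-1 (left) and in fas2-4 (right), each against Col-0 of its experiment. Filled points were called: AOC3, PDF1.2b, LOX3 and JMT on the left, and JMT on the right. The widest bars are those of the defensins and VSP1 in fas2-4.

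The difference between the mutants was tested as the fas2-4 effect minus the hira-1 effect over all 12 libraries. Of 31 tested members 4 were called (12.9%), against 11.6% of all 20152 genes, and all 4 differences were positive, as in 5.84% of all genes (5.73% were negative). LOX3 differed by +1.61 ± 0.38 (adjusted p = 0.0222), from +0.34 in fas2-4 and −1.29 in the libraries labelled hira-1. OPR3 differed by +1.13 ± 0.28 (adjusted p = 0.0259), from +0.51 in fas2-4 and −0.63 in the libraries labelled hira-1. VSP2 differed by +3.04 ± 0.79 (adjusted p = 0.0303), from +2.16 in fas2-4 and −0.88 in the libraries labelled hira-1. These 3 genes had opposite signs in the mutants. JMT had the same sign in both, and it differed by +0.92 ± 0.26 (adjusted p = 0.0378), from −0.69 in fas2-4 and −1.64 in the libraries labelled hira-1.

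With the length correction LOX3 was no longer called (adjusted p = 0.0906), and with the replicate block VSP2 was not (adjusted p = 0.0728). The block called 7 members, adding LOX2, LOX4 and JAZ1 as positive and ORA59 as negative, when 32.1% of all genes were called. No member was called without the first or without the third Col-0 library of experiment 2 (3.81% and 4.19% of all genes), and 10 were without the first fas2-4 library (22.4% of all genes). In experiment 1, 1 was called without the first Col-0 library (3.48% of all genes). Without the second Col-0 library, the first library labelled hira-1 or the third, 2 were called in each fit (5.29%, 8.41% and 6.29%). In experiment 2, 2 were called without the second Col-0 library and 2 without the second fas2-4 library (4.89% and 4.02%). ORA59 differed by −2.05 ± 0.72 (adjusted p = 0.0769), with opposite signs in the mutants (−0.62 in fas2-4 and +1.42 in the libraries labelled hira-1). PDF1.2b, called in the libraries labelled hira-1, differed by −2.47 ± 1.48 (adjusted p = 0.257), and AOC3, positive in both mutants, by −0.29 ± 0.48 (adjusted p = 0.699).

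The Col-0 sets of the 2 experiments, both wild type, differed in cyclase genes, a storage protein gene, a repressor gene and defensin genes. Of 31 tested members 7 were called between Col-0 of experiment 2 and Col-0 of experiment 1 (22.6%), 2 higher and 5 lower, against 24.4% of all genes (11.2% higher and 13.2% lower). The libraries did not overlap in 12 members, against 49.9% of all genes. Experiment, depth and any difference in growth cannot be told apart here. Of the cyclases, AOC1 had 9.05, 20.1 and 13.4 CPM in Col-0 of experiment 2, against 24.7, 35.1 and 46.3 CPM in Col-0 of experiment 1, with −1.32 (adjusted p = 0.0140). AOC2 had 16.7, 42.3 and 21.2 CPM in Col-0 of experiment 2, against 73.1, 76.8 and 128 CPM in Col-0 of experiment 1, with −1.79 (adjusted p = 0.00396). AOS had −1.10 (adjusted p = 0.00868), so 3 of 9 synthesis genes were lower in experiment 2 and none was higher. JAZ3 had 10.8, 9.101 and 9.22 CPM in Col-0 of experiment 2, against 26.98, 27.3 and 34.2 CPM in Col-0 of experiment 1, with −1.60 (adjusted p = 0.000172).

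Among the outputs, VSP2 had −1.72 (adjusted p = 0.0410), while all 6 genes of the ethylene branch had positive values. PDF1.2b had 3.88, 11.6 and 14.3 CPM in Col-0 of experiment 2, against 0.398, 0.525 and 0.541 CPM in Col-0 of experiment 1, with +4.34 (adjusted p = 0.0156). PDF1.3 had 27.2, 96.9 and 123 CPM in Col-0 of experiment 2, against 11.8, 6.11 and 17.8 CPM in Col-0 of experiment 1, with +2.79 (adjusted p = 0.0391). PDF1.2a and PDF1.2c had +2.07 and +2.54 but overlapped between the sets (adjusted p = 0.149 and 0.154). With the block, 10 members were called, against 39% of all genes, and PDF1.2b, PDF1.3 and VSP2 were not among them. Without the third Col-0 library of experiment 2 or of experiment 1, 4 members were called (15.6% and 16.9% of all genes), and 12 were (27.3%) without the first fas2-4 library, which enters this fit through the shared spread.

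The rest of both hormone pathways was followed in lists of other genes. In the libraries labelled hira-1, 0 of 16 other synthesis and turnover genes were called by edgeR (3 at an unadjusted p under 0.05, 2 by DESeq2), and 2 of 11 other signalling genes were called lower. These were NIG1, also known as MYC5 (−1.82, adjusted p = 0.0414), and MYC3 (−0.64, adjusted p = 0.0491), both relatives of MYC2. Of 20 genes of ethylene synthesis and signalling, 1 was lower, the membrane signal carrier EIN2 (−1.10, adjusted p = 0.0366). With the block 2 were higher and 7 lower. EIN2 had 14.17 CPM and 3.736 TMM-scaled TPM in libraries labelled hira-1, against 3.434 and 1.425 for LOX3 with 3086 exon bases. EIN2 is thus longer than LOX3, and genes with at least 3000 exon bases had a median of −0.76 in this comparison. Its value with the length correction is not given here. Of 8 other ethylene response factors and 10 other outputs, 0 were called by edgeR, with 1 in each list at an unadjusted p under 0.05, and DESeq2 called 0 and 1. Of the touch and wound, salicylic acid, root and floral lists, 0 were called by edgeR in the libraries labelled hira-1. Counted by an unadjusted p below 0.05, the same lists had 0 of 9, 1 of 8, 0 of 2 and 4 of 5, and DESeq2 called 0, 0, 0 and 3. Of the 4 floral genes, SEP3 (+1.96), AP1 (+1.35) and SEP1 (+1.06) had positive values and AG (−0.97) a negative one, and DESeq2 called 2 floral genes higher and 1 lower. The 7 floral markers summed to 13.6, 12.4 and 13.7 CPM in libraries labelled hira-1, against 7.16, 7.35 and 10.4 CPM in Col-0, and their part in the values of the pathway was not tested. The salicylic acid markers summed to 465, 295 and 493 CPM in libraries labelled hira-1, against 403, 474 and 505 CPM in Col-0. The root markers summed to 56.8 to 85.8 CPM in libraries labelled hira-1 and 73.7 to 89.8 CPM in Col-0, with COBL9, EXPA7 and PRP3 at 0 in both.

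The touch and wound genes summed to 360, 457 and 372 CPM in libraries labelled hira-1, against 247, 712 and 292 CPM in Col-0, where RRTF1 was at 0. The second Col-0 library of experiment 1 thus stood above the others, with 357 CPM from TCH4 alone. It was the highest of its group for 6 of the 10 tested perception and repression genes (JAZ1, JAZ2, JAZ5, JAZ6, JAZ7 and JAZ8). That compares with 31.1% of all tested genes. The third Col-0 library was highest for the other 4, against 39.8% of all tested genes. Over all 30 tested members, the third was highest for 16 and the second for 13. JAZ1 had 2.77, 6.39 and 2.94 CPM in libraries labelled hira-1, against 2.88, 12.7 and 5.85 CPM in Col-0, and JAZ5 had 0.651, 2.23 and 0.981 CPM in libraries labelled hira-1, against 0.845, 3.05 and 1.97 CPM in Col-0. JAZ7 had 1.03, 1.44 and 1.798 CPM in libraries labelled hira-1, against 0.149, 2.77 and 0.639 CPM in Col-0, so its lowest and highest library were both wild type. The part of touch or wounding in these values was not tested.

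In fas2-4, 1 of 18 tested genes in the list of other synthesis and turnover genes was called. This was the lipoxygenase LOX1, which was higher (+1.51, adjusted p = 0.0123). LOX1 stands in this list as a lipoxygenase, which is no evidence of a part in jasmonate synthesis. Such a part was not tested. Of 13 other signalling genes, 1 was lower, MYC4 (−0.54, adjusted p = 0.0367). Of 12 other outputs, 1 was higher, TAT3 (+1.63, adjusted p = 0.0221), a tyrosine aminotransferase induced by jasmonate. Of 21 ethylene synthesis and signalling genes, 0 were called by edgeR or DESeq2 and 0 had an unadjusted p under 0.05. Of 8 other ethylene response factors, 0 were called by either tool and 2 had an unadjusted p under 0.05. Without the first fas2-4 library, 28% of all genes were called. In that fit 0 of 12 other outputs were called, and 4 of 18 other synthesis and turnover genes were called higher.

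Between the mutants, LOX1 (+2.65, adjusted p = 0.00638), NIG1 (+2.97, adjusted p = 0.0174), MYC3 (+0.71, adjusted p = 0.0472) and the lectin-like output JR1 (+1.37, adjusted p = 0.0403) differed. Of the ethylene lists, 0 of 21 and 0 of 8 were called by edgeR, with 5 and 1 at an unadjusted p under 0.05, and DESeq2 called 2 and 1. RHL41 (+1.33) and the salicylic acid markers EDS16 (+1.51), BGL2 (+3.06) and EDS5 (+1.49) also had positive differences. Between the Col-0 sets, 8 of 21 ethylene synthesis and signalling genes were lower in experiment 2 and 1 was higher. Those with the smallest p were ACS4 (−3.76) and ACS8 (−3.08), which make the ethylene precursor, the transcription factor EIL1 (−1.39) and its F-box regulator EBF2 (−1.17). ERF5 (−2.50), ERF104 (−2.41) and the wound regulator ORA47 (−2.93) were lower too. The defensin PDF1.5 (+3.35) and NINJA (+1.33), an adaptor of the JAZ repressors, were higher. NAC3, WRKY53, WRKY70, AG, SEP1, OPR1, OPR2, ABCG16 and NIG1 were also lower in experiment 2, and LOX1, MYC4, SCR and PYK10 higher.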

How the data were processed

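RNA-seq was counted per gene in 12 libraries, 4 groups of 3. The authors deposited raw counts and, in separate columns, a score, TMM-scaled TPM. All 24 value columns were used. The tools listed are fastp 0.23.4 and HISAT2 2.2.1 with the build TAIR10, per the submitters' processing notes; the counter, its annotation and its use of strand are not given in the sources used here.

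From the counts, edgeR 4.0.16 (R 4.3.3) kept genes by filterByExpr, scaled by TMM and ran the robust quasi-likelihood test, within each experiment for a mutant and over all 12 libraries for the difference between mutants and between Col-0 sets. Adjusted p-values (Benjamini-Hochberg over all genes tested) under 0.05 were called. Alternatives were DESeq2 1.42.0, limma 3.58.1, other filters and scaling, a minimum of 2-fold, an exon-length correction, the replicate number as a block, and each library left out. The main edgeR fit of each comparison was also run on simulated counts with known changes, and the alternatives were not. Same-numbered libraries of experiment 1 deviated together (correlations of 0.351, 0.623 and 0.718 across genes). The labels state no pairing, so the main fit had no block, and results with the block are given beside it. Depth per library, given in the report, was lower in experiment 1, which makes its low genes less precise.

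All 33 members are named, with each library's value for members called in any comparison and for named members of each role; of other lists, up to 4 called genes with the smallest p are named. Members and lists were chosen with earlier results of these data known. Of 32833 genes, 32548 matched the RefSeq annotation of TAIR10.1, the source of sequences, exon lengths and overlaps.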

Additional observations from a re-analysis of the deposited data

Results flagged for a closer look

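In 4 members the effects of the mutants, each against Col-0 of its own experiment, differed by the test of the difference itself (edgeR, all 12 libraries). The fas2-4 effect minus the hira-1 effect was 1.61 for LOX3 (SE 0.38, adjusted p = 0.0222), 1.13 for OPR3 (SE 0.28, adjusted p = 0.0259), 0.92 for JMT (SE 0.26, adjusted p = 0.0378) and 3.04 for VSP2 (SE 0.79, adjusted p = 0.0303) on the log2 scale. These 4 of 31 tested members (12.9%) stand beside 11.6% of all 20152 genes, so their number is close to the background. With each of the 12 libraries left out in turn, LOX3 was called in 8 fits, OPR3 and VSP2 in 7 and JMT in 4. Mutant and experiment cannot be told apart in this difference except through the Col-0 sets.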

How the results depend on the processing

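In the hira-1 comparison 4 members were called, against 7 by DESeq2 and 18 with the replicate block. With the length correction and the block 17 were called, and with a library left out 0 to 7. The shares of all genes called in these fits were, in order, 13.7%, 24%, 51.2%, 38.4% and 0.0999% to 26.4%. In fas2-4 1 was called, against 0 at a minimum of 2-fold, 2 without a filter and 6 by DESeq2. With the length correction 2 were called, with all 12 libraries in the fit 3, and with a library left out 0 to 6. Of all genes, 9.74% were called in the main fit, 14.9% by DESeq2, 16.7% with the length correction and 3.17% to 28% with a library left out. The share is not given here for the other fits. For the difference between mutants 4 were called, against 7 with the block and 7 with the length correction and the block. With a library left out, 0 to 10 were called. The shares of all genes were, in the same order, 11.6%, 32.1%, 29.1% and 3.48% to 23.4%. Between the Col-0 sets 7 were called, against 11 by DESeq2, 11 with the length correction and 4 without a filter. With a library left out, 4 to 12 were called. Of all genes, 24.4% were called in the main fit, 29.6% by DESeq2, 33.4% with the length correction and 14.8% to 27.7% with a library left out. The share without a filter is not given here. No called value changed sign in any of these fits.

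In experiment 2 the correlations of same-numbered libraries were −0.0611, 0.269 and −0.0316, which neither show nor exclude a pairing by number. The replicate block called 1 member there, as without it. Over all genes, 2575 were called in the hira-1 comparison, against 9593 with the block, 4502 by DESeq2 and 7190 with the length correction and the block. In fas2-4 1948 were called (1356 higher, 592 lower), against 2980 by DESeq2 (1745 higher, 1235 lower), 3333 with the length correction and 3081 with the length correction and the block. For the difference between mutants 2331 were called, against 6461 with the block, 4181 by DESeq2 and 5872 with the length correction and the block, and between the Col-0 sets 4919, against 7853 with the block and 8948 with the length correction and the block. The cause of these differences between fits was not tested. Depth limits CYP94B3 and ERF1, which had under 10 counts in most libraries.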
